A study of Mus musculus with 4 samples.

Results

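The genes described here are 49 genes of the lysosome, the vacuolar proton pump and autophagy in cultured mouse Kupffer cells, which are macrophages that reside in the liver. They were chosen by name, as cathepsins and related proteases (12 genes), other hydrolases and saposins (10), lysosomal membrane proteins (4), transcription factors of the MiT/TFE family (4), subunits of the vacuolar ATPase (9) and autophagy genes (10). All 49 had a probe on the array and all 49 were tested, among 24055 genes tested in all. The cells were freed with collagenase from livers of C57BL/6 males at an age of 8 weeks, enriched on a Percoll gradient and cultured. The vehicle group received ethanol and the maresin 1 group received 200 nM maresin 1 (MaR1), a lipid mediator made from docosahexaenoic acid that is known for its part in the resolution of inflammation. Both were kept for 24 h in medium with 0.1% serum after plating in 10% serum. Each group has 2 arrays, and the labels do not say whether the replicates came from separate animals or cultures, so the p-values below measure only how far these arrays spread, and that spread may be technical.

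Lysosomes are acidic compartments in which macrophages break down what they take up. The vacuolar ATPase pumps protons across the lysosomal membrane and so provides the low pH that most of the cathepsins and glycosidases need. Autophagy encloses parts of the cell's own cytoplasm in a membrane and delivers them to the lysosome. The MiT/TFE factors are known as regulators of both systems, and Kupffer cells, which clear particles from the blood that enters the liver, are rich in lysosomes.

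Expression was measured on one-colour Agilent arrays with 62976 spots each. A level is log2 of the background-corrected spot signal minus the array's 75th percentile, so that a level of 0 stands for that percentile, and a difference is the maresin 1 mean minus the vehicle mean. The percentile itself came to 961 and 988 with vehicle and to 946 and 847 with maresin 1, and 54.4% to 55.6% of probes were well above background. Levels across probes correlated at r = 0.996 between the vehicle arrays, at 0.995 between the maresin 1 arrays and at 0.992 to 0.993 between arrays of different groups. The vehicle arrays lay at the first positions of the only slide and the maresin 1 arrays at the next ones, so position and treatment cannot be told apart. A gene was called at an adjusted p under 0.05 in limma (Benjamini-Hochberg adjustment over all genes).

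The markers of Kupffer cells and macrophages were bright on every array. Their summed level, in multiples of the 75th percentile, was 1156 to 1205 with vehicle and 1111 to 1132 with maresin 1, and of 11 markers Csf1r was called higher and Adgre1 lower. The summed level of dendritic cell markers was 18.9 to 19.4 with vehicle and 42.9 to 43.6 with maresin 1, with 5 of the 7 tested called higher and 0 lower. Batf3 and Clec9a, both known from the dendritic cells that cross-present antigen, were 1.89 and 0.99 higher on the log2 scale (limma, adjusted p = 0.00150 and 0.00330). Batf3, with mean levels of 2.73 and 4.62, weighs most in the sum with maresin 1. Flt3 and Itgae went the other way, by -0.28 and -0.14, and were not called. B cell markers summed to 6.65 to 6.78 and 8.62 to 8.78 (3 of 6 called higher), mast cell and basophil markers to 5.58 to 5.80 and 9.18 to 9.20 (1 of 4, Kit), and sinusoidal endothelial markers to 65.8 to 69.0 and 77.8 to 78.1 (3 of 7 higher, 1 lower). T and NK cell markers summed to 23.4 to 23.7 and 26.7 to 27.8 (1 of 6 higher, 3 lower), and Gzmb was the only one of them with a positive difference. Kit and Gzmb, by far the brightest of their lists, carry most of the mast cell and the T and NK cell sums. Hepatocyte markers summed to 21.2 to 22.9 and 18.4 to 19.6 (1 of 8 lower), stellate cell markers to 4.23 to 4.29 and 3.31 to 3.35 (2 of 6 lower), and neutrophil markers to 1.83 to 1.86 and 1.89 to 1.91 (0 of 5 called). Many of the genes below are also expressed by these other cells, and the part of those cells in the differences was not tested. In such bulk RNA, fewer cells of a type and less RNA per cell cannot be told apart.

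Most of the 49 genes differed little between maresin 1 and vehicle. The difference was within 0.5 on the log2 scale for 46 genes, and the 3 beyond it were Ctse, Ifi30 and Ctsc. Of these, Ctse was well above background only with maresin 1 and was kept through that group alone, which favours a call higher. In limma 17 genes (34.7%) were called, 9 higher (18.4%) and 8 lower (16.3%), and 32 were not. Over all genes tested 24.0% were called, 11.2% higher and 12.8% lower, and among the 10172 genes with a mean level above 0, where 46 of the 49 lie, 22% were called, 13% higher and 9.0% lower. The median difference was -0.03 over the 49 genes and -0.02 over all genes tested, and the median size of the difference was 0.194 against 0.179. The vehicle and maresin 1 arrays did not overlap for 38 of the 49 genes (77.6%), against 69.6% of all genes tested and 75% of those with a mean level above 0. The SE was close to 0.06 for nearly all of the 49, and the calls begin at differences of about that size multiplied by 4, which leaves many of them near the threshold.

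**Figure D1:**
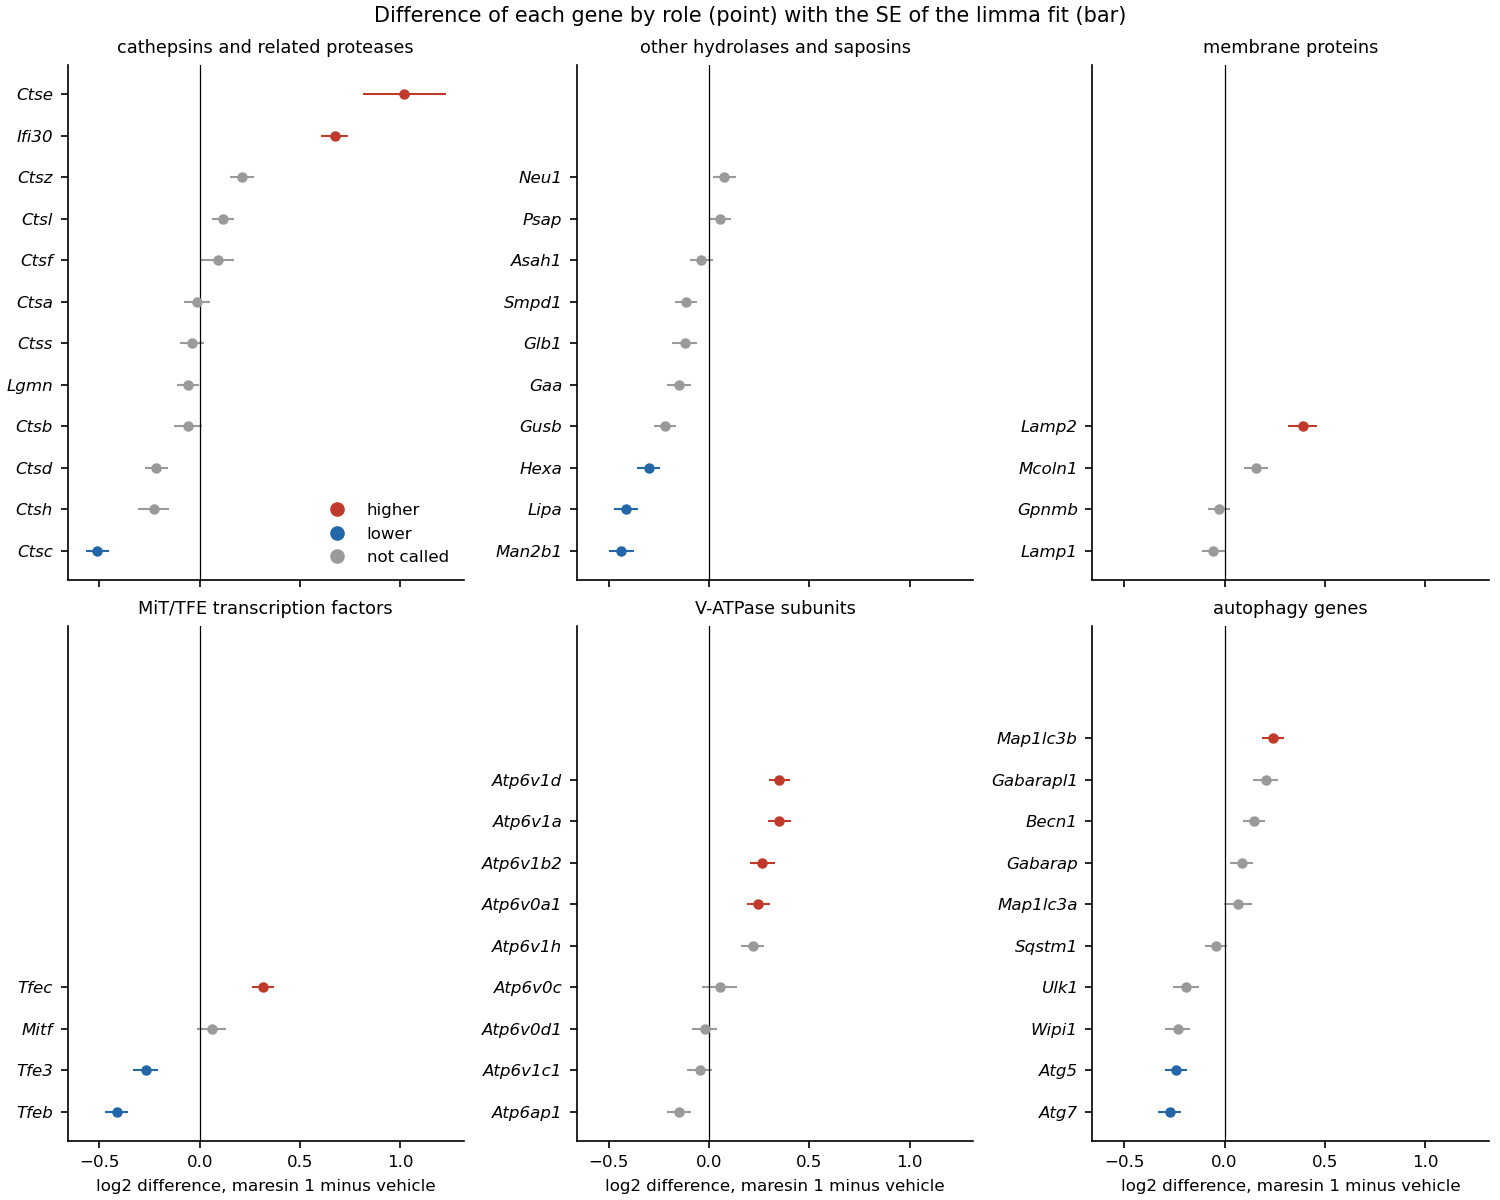
Difference between maresin 1 and vehicle for each of the 49 genes, by role (x axis, log2 difference; point, difference; bar, SE of the limma fit). The 9 genes called higher include 4 proton pump subunits, and the 8 called lower include 3 hydrolases; the wide bar is Ctse, at 1.02 with an SE of 0.21.

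Leaving out 1 array at a time moved the 17 differences by at most 0.0574, apart from Ctse. Their sign could not change, because the groups did not overlap for any of the 17. Their calls did not hold. Without vehicle replicate 1, without vehicle replicate 2 and without maresin 1 replicate 1 the gene called was Ifi30 in each case, and without maresin 1 replicate 2 there were 0, at adjusted p-values of up to 0.203 in limma. The counts over all genes fell too, from 2699 higher and 3069 lower to between 882 and 1207 higher and between 668 and 1163 lower.

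How the arrays were scaled bore on the balance of the calls. The main scaling gave 9 higher and 8 lower (52.9% of calls higher). Quantile normalization gave 3 and 12 (20%), normexp background correction with the 75th percentile gave 11 and 12 (47.8%), normexp with quantile normalization gave 4 and 16 (20%), and the authors' value table gave 3 and 12 (20%). Over all genes tested the share of calls higher was 46.8%, 45.0%, 52.4%, 42.8% and 45.4% in the same order. The median of the 49 differences was -0.03, -0.11, -0.01, -0.09 and -0.10, again in that order. The 8 genes called lower were called under all 5 scalings, and of the 9 called higher this held for 2, Ifi30 and Tfec. All 17 kept their sign under the scalings run, which for Ctse do not include the authors' value table. Without the filter on dim probes, 2 were called higher and 2 lower. Mitf, Atp6v0c, Gabarap, Neu1 and Psap, none of them called in the main fit, changed sign between scalings.

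**Figure D2:**
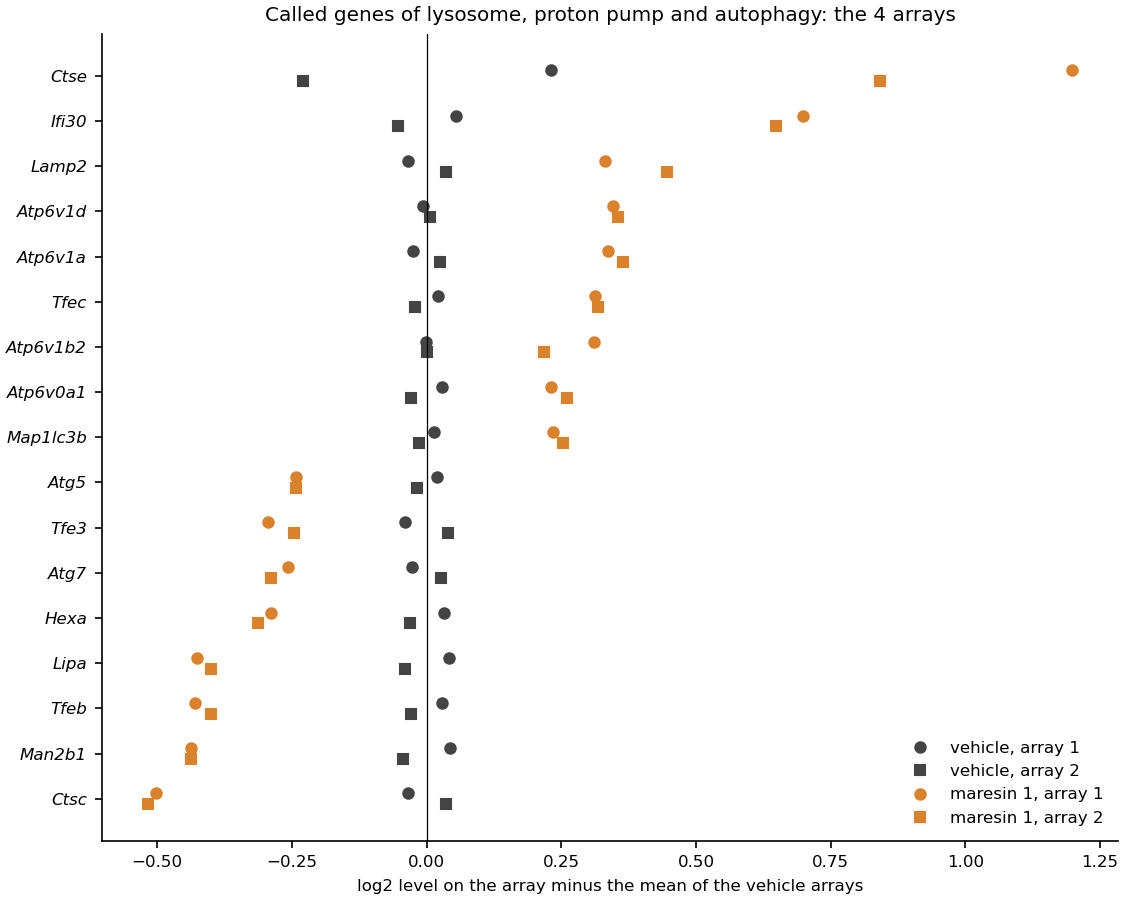
Level of the 17 called genes on each of the 4 arrays, minus the mean of the vehicle arrays (x axis, log2; dark, vehicle; orange, maresin 1; circles, first array of a group; squares, second array). Vehicle and maresin 1 arrays do not overlap for any of the 17, and Ifi30, Ctse and Ctsc lie farthest from 0.

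The 4 MiT/TFE genes encode related basic helix-loop-helix leucine zipper factors, and they went different ways. Tfeb, the factor best known for lysosome biogenesis, fell. Its level was 0.17 and 0.12 with vehicle and -0.28 and -0.25 with maresin 1. That is a difference of -0.41 ± 0.06 (SE, n = 2 a group; limma, adjusted p = 0.0162), or 1.33-fold. Of its 3 other probes, 2 were also called lower, at -0.27 and -0.29 (limma, adjusted p = 0.0386 and 0.0444), and 1 was not, at -0.07. Tfe3, which acts beside it in macrophages, also fell, from 4.77 and 4.85 to 4.52 and 4.57. The difference was -0.27 ± 0.06 (SE, n = 2; limma, adjusted p = 0.0466), but a second probe of Tfe3 differed by -0.01 and was not called. Tfec, a member of the family found mainly in macrophages, rose from 1.11 and 1.07 to 1.40 and 1.41, by 0.32 ± 0.06 (SE, n = 2; limma, adjusted p = 0.0263), or 1.24-fold. For these 3 genes every maresin 1 array lay on the same side of both vehicle arrays, as it did for 69.6% of all genes tested. The share called was 75% of the 4 genes, against 24.0% of all genes tested. Mitf, the founding member, read 4.41 and 4.39 with vehicle and 4.39 and 4.53 with maresin 1. The groups of Mitf overlapped, and its difference of 0.06 ± 0.07 (SE, n = 2) was not called (limma, adjusted p = 0.571). The calls of Tfeb, Tfe3 and Tfec were lost whichever array was left out (limma, adjusted p = 0.0726 to 0.192).

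MiT/TFE factors bind the E-box CACGTG, and a longer palindrome, TCACGTGA with a G before it and a C after it, is the element described in the promoters of lysosomal genes. These motifs read the same on either strand. RefSeq promoter windows of mouse build GRCm38, from 250 bases before to 50 bases after a gene's start, were at hand for 40 of the 49 genes (50 windows). CACGTG was found in 14 of the 50 windows (28.0%), against 7.15% of all 32851 windows. TCACGTGA, which contains CACGTG, was found in 6 (12.0%), against 0.974% of all windows. The full palindrome, which contains both, was found in 0 of the 50 and in 0.326% of all. The 14 genes with CACGTG comprised 2 of the 7 called higher that have a window, 2 of the 8 called lower and 10 of the 25 not called. A match is a run of letters in the window and no measurement of binding. The 6 stretches with TCACGTGA are given as the letters that the counts refer to; the motif is in capitals, with 20 bases on either side, and each reads 5′ to 3′ on the gene's strand.
Atp6v0d1, chr8:105566041-105566088, minus strand, motif starting 4 bases before the start: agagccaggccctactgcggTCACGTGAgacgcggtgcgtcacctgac
Atp6v1a, chr16:44139364-44139411, minus strand, 132 bases before: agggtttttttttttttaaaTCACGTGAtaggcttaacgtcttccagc
Ctsa, chr2:164833740-164833787, plus strand, 13 bases before and with a second copy: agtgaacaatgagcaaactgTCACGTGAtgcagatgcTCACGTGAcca
Ctsd, chr7:142387899-142387946, minus strand, 99 bases before: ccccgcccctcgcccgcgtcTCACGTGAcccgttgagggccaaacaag
Ifi30, chr8:70766833-70766880, minus strand, 197 bases before: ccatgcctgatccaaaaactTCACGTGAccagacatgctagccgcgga
Mcoln1, chr8:3500453-3500500, plus strand, 46 bases before: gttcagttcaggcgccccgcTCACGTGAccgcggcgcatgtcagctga
Of these 6 genes, Ifi30 and Atp6v1a were called higher with maresin 1, and Atp6v0d1, Ctsa, Ctsd and Mcoln1 were not called.

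The vacuolar ATPase is the proton pump of the lysosomal membrane. The pump has a cytosolic V1 sector, which splits ATP, and a membrane V0 sector, which carries protons. Of the 9 subunits, 4 were called higher, 0 lower and 5 were not called, which is 44.4% called against 24.0% of all genes tested (11.2% higher). Their median difference was 0.22, against -0.02 over all genes. Atp6v1a, the catalytic A subunit, read 5.16 and 5.21 with vehicle and 5.52 and 5.55 with maresin 1, a difference of 0.35 ± 0.06 (SE, n = 2; limma, adjusted p = 0.0223). Atp6v1d, a subunit of the central stalk that turns as ATP is split, read 5.14 and 5.15 with vehicle and 5.49 and 5.5 with maresin 1, also a difference of 0.35 ± 0.05 (SE, n = 2; limma, adjusted p = 0.0196). Both correspond to about 1.27-fold and 1.28-fold, and in both the spread within a group was small beside the gap between the groups. Atp6v1b2, the B subunit of the ATP-splitting head, went from 6.35 on both vehicle arrays to 6.66 and 6.57, by 0.26 ± 0.06 (SE, n = 2; limma, adjusted p = 0.0492). A second probe of Atp6v1b2 differed by 0.52 (limma, adjusted p = 0.0107). Atp6v0a1, an isoform of the large membrane subunit, went from 2.77 and 2.71 to 2.97 and 3.0, by 0.25 ± 0.06 (SE, n = 2; limma, adjusted p = 0.0491), with 0.15 at its second probe, which was not called.

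The other 5 pump subunits gave no call at the probe used. Atp6v1h, a V1 subunit that regulates the pump, differed by 0.22 ± 0.06 (SE, n = 2; limma, adjusted p = 0.0642), and its second probe was called at 0.32 (limma, adjusted p = 0.0453). Atp6v0c, the subunit of the proton-carrying ring, differed by 0.05, Atp6v0d1, which joins ring and stalk, by -0.02, and Atp6v1c1, a V1 subunit at the junction of the sectors, by -0.05. The arrays of the 2 groups overlapped for these 3. Atp6ap1, an accessory protein needed to assemble the pump, differed by -0.15 ± 0.06 (SE, n = 2; limma, adjusted p = 0.144), without overlap.

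The upward calls of the pump subunits changed with the scaling. Of the 9, 4 were called higher and 0 lower in the main scaling, 0 and 0 after quantile normalization, 5 and 0 with normexp and the 75th percentile, 2 and 1 with normexp and quantile normalization, and 1 and 0 in the authors' value table. Their median difference went from 0.22 to 0.08 after quantile normalization. Atp6v1d was called under 4 of the 5 scalings, Atp6v1a under 3, and Atp6v1b2 and Atp6v0a1 under 2. No call among the 4 survived the loss of an array (limma, adjusted p = 0.0769 to 0.203 over the 4 arrays left out in turn).

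The 11 other pump subunits tested, of 16 listed, gave 4 called higher, 0 lower and 7 not called, which is 36.4% called against the same 24.0%. The gene with the widest gap was Atp6v0d2, an isoform of the d subunit known from osteoclasts and macrophages. Its level was 3.87 and 3.80 with vehicle and 4.78 and 4.90 with maresin 1, a difference of 1.00 ± 0.07 (SE, n = 2; limma, adjusted p = 0.00463), or 2.01-fold. Its second probe gave 1.12 (limma, adjusted p = 0.00285). The call held whichever array was left out (limma, adjusted p = 0.0278 to 0.0378) and under all 5 scalings. Its ubiquitous counterpart Atp6v0d1 differed by -0.02, as given above. Atp6v0b and Atp6v0e, both of the membrane sector, rose by 0.34 each (limma, adjusted p = 0.0219 and 0.0248), and the accessory subunit Atp6ap2 rose by 0.25 (limma, adjusted p = 0.0432). Tcirg1, the a3 isoform known from osteoclasts and lysosomes, differed by -0.08 and was not called (limma, adjusted p = 0.422). Over all 20 subunits tested the calls were 8 higher and 0 lower in the main scaling, but 1 and 2 after quantile normalization and 3 and 1 in the authors' value table. The calls of Atp6v0b, Atp6v0e and Atp6ap2 were lost whichever array was left out (limma, adjusted p = 0.0859 to 0.180). Atp6v0a4, Atp6v1b1, Atp6v1c2, Atp6v1e2 and Atp6v1g3 had no probe that passed the filter on dim probes.

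**Figure D3:**
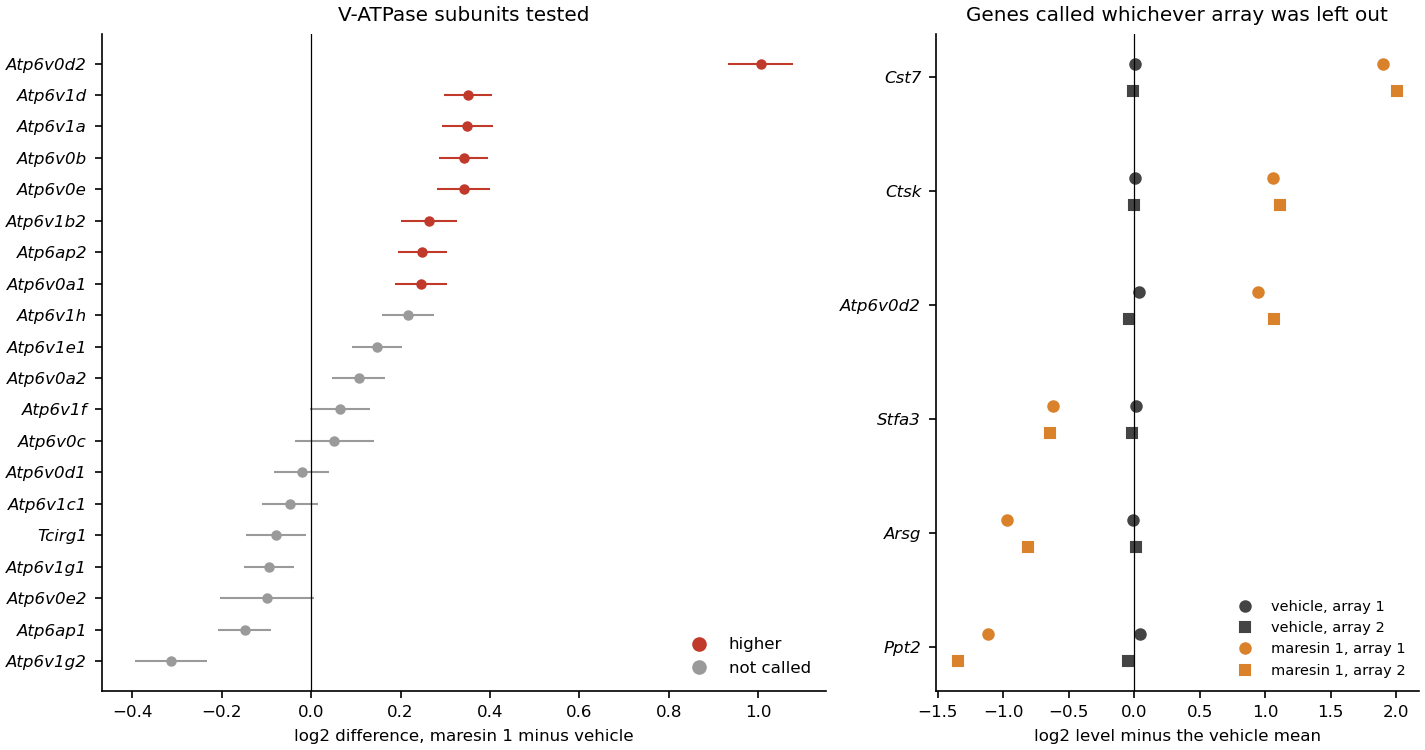
Left, difference of the 20 proton pump subunits tested (x axis, log2 difference; bar, SE of the limma fit). Right, level of the 6 other lysosomal genes whose call held whichever array was left out, minus the vehicle mean (x axis, log2). Atp6v0d2, at 1.00, stands above the other subunits, none of which reached 0.5.

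Among the cathepsins and related proteases most of the abundant enzymes were not called. Of the 12 genes, 2 were called higher, 1 lower and 9 were not, with a median difference of -0.03. The share called was 25%, against 24.0% of all genes tested. Ifi30, the thiol reductase GILT that opens disulfide bonds of proteins for antigen presentation, read 6.46 and 6.35 with vehicle and 7.10 and 7.05 with maresin 1. The difference was 0.67 ± 0.07 (SE, n = 2; limma, adjusted p = 0.00805), or 1.59-fold. It was called under all 5 scalings and without either vehicle array or maresin 1 replicate 1 (limma, adjusted p = 0.0426 to 0.0491), and lost its call without maresin 1 replicate 2 (limma, adjusted p = 0.0540). Ctsc, the dipeptidyl peptidase that activates serine proteases of granules, read 5.33 and 5.40 with vehicle and 4.86 and 4.85 with maresin 1. It fell by 0.51 on the log2 scale, with an SE of 0.06 (n = 2; limma, adjusted p = 0.0109), or 1.42-fold, under all 5 scalings. It lost its call whichever array was left out (limma, adjusted p = 0.0555 to 0.0667). Both genes are also expressed by other leukocytes, whose marker levels are given above.

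Ctse, the aspartic protease cathepsin E, was dim. It was well above background on both maresin 1 arrays and on neither vehicle array. It was therefore kept only through the group in which it was higher, and its p-value rests on dim vehicle values. Its measured levels were -6.10 and -6.56 with vehicle and -5.13 and -5.49 with maresin 1, a difference of 1.02 ± 0.21 (SE, n = 2; limma, adjusted p = 0.0354). With its vehicle levels raised to the lowest level of any probe well above background on that array, Ctse was 1.19-fold higher with maresin 1. A probe not well above background can lie above that level, so this fold is no firm minimum. The call was lost with normexp and the 75th percentile, where the difference was 0.18 (limma, adjusted p = 0.0645), with normexp and quantile normalization, at 0.10 (limma, adjusted p = 0.257), without a filter on dim probes (limma, adjusted p = 0.0626), and without each of the 4 arrays (limma, adjusted p = 0.0535 to 0.123).

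The 9 proteases not called in the main fit differed by -0.23 to 0.21. Ctsd, the main aspartic protease of the lysosome, differed by -0.22 ± 0.06 (SE, n = 2; limma, adjusted p = 0.0648), and Ctsh, an aminopeptidase, by -0.23 ± 0.08 (SE, n = 2; limma, adjusted p = 0.0980). Both were called lower under each of the 4 other scalings, and 1 of the 2 other Ctsh probes was called at -0.32 (limma, adjusted p = 0.0303). Ctsz, a carboxypeptidase, differed by 0.21 ± 0.06 (SE, n = 2; limma, adjusted p = 0.0682), without overlap of the groups. Ctsb and Ctsl, cysteine proteases of broad specificity, differed by -0.06 and 0.12, and Ctss, which trims the invariant chain for antigen presentation, by -0.04. Lgmn, an asparaginyl endopeptidase, differed by -0.06, Ctsa, which protects β-galactosidase and neuraminidase, by -0.01, and Ctsf by 0.09. The groups overlapped for Ctsa, Ctsb, Ctsf and Ctss.

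Of 9 other lysosomal proteases tested, 2 were called higher and 1 lower (33.3% called, against 24.0% of all genes tested). Ctsk, the collagen-degrading cathepsin known from osteoclasts, rose. Its level was -0.24 and -0.25 with vehicle and 0.81 and 0.87 with maresin 1, by 1.09 ± 0.06 (SE, n = 2; limma, adjusted p = 0.00298), or 2.13-fold. The call held whichever array was left out (limma, adjusted p = 0.0242 to 0.0310). Napsa, an aspartic protease, rose by 0.32 (limma, adjusted p = 0.0448), with 0.19 at a second probe that was not called (limma, adjusted p = 0.187), and Ctsw, a cathepsin of cytotoxic lymphocytes, fell by 0.39 on the log2 scale (limma, adjusted p = 0.0432). Both lost their call whichever array was left out (limma, adjusted p = 0.0523 to 0.179). Scpep1 differed by 0.24 and was not called (limma, adjusted p = 0.115).

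The inhibitors of these proteases held the widest difference among the lysosomal lists. Of 7 listed inhibitors 6 were tested, with 3 called higher and 1 lower (66.7% called, against 24.0% of all genes tested). Cst7, which encodes cystatin F, an inhibitor carried to lysosomes of leukocytes that acts on cathepsin C and its relatives, read 0.51 and 0.49 with vehicle and 2.39 and 2.50 with maresin 1. The difference was 1.95 ± 0.07 (SE, n = 2; limma, adjusted p = 0.00158), or 3.87-fold, and it was called under all 5 scalings and whichever array was left out (limma, adjusted p = 0.0144 to 0.0191). Cst3, which encodes the secreted cystatin C, rose by 0.30 (limma, adjusted p = 0.0431), a call lost under 3 of the 5 scalings and whichever array was left out (limma, adjusted p = 0.112 to 0.176). Stfa3, a stefin of the cytosol, fell from -3.75 and -3.79 to -4.39 and -4.41, by 0.63 on the log2 scale (limma, adjusted p = 0.00634), and kept its call whichever array was left out. Stfa2 did not rise well above background with vehicle and differed by 1.11 (limma, adjusted p = 0.0466). With its vehicle levels raised as for Ctse it was 1.75-fold higher with maresin 1, which is again no firm minimum. Like Ctse, Stfa2 was kept only through the maresin 1 group, which favours a call higher. Its call was lost in 3 of the 4 cases with an array left out, where the difference ran from 0.80 to 1.42. The stefins are a multigene family whose near-identical copies can share a probe, so their values are uncertain. Cst7 and Cst3 are also expressed by dendritic cells. Of the 7 markers of those cells tested, 5 were called higher with maresin 1, while Flt3 and Itgae differed by -0.28 and -0.14. The part of dendritic cells in the differences of Cst7 and Cst3 was not tested.

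Of the 10 other hydrolases and saposins, 3 were called lower, 0 higher and 7 were not. That is 30% called, against 24.0% of all genes tested (12.8% lower). The median difference was -0.14, against -0.02 over all genes tested, and this gap was not tested. Man2b1, the lysosomal α-mannosidase, read 3.17 and 3.08 with vehicle and 2.69 on both maresin 1 arrays, a difference of -0.44 ± 0.06 (SE, n = 2; limma, adjusted p = 0.0162). Lipa, the acid lipase that frees cholesterol and fatty acids from lipoproteins taken up, read 4.33 and 4.24 with vehicle and 3.86 and 3.88 with maresin 1, a difference of -0.41 ± 0.06 (SE, n = 2; limma, adjusted p = 0.0182). Hexa, the α subunit of β-hexosaminidase, read 4.99 and 4.93 with vehicle and 4.67 and 4.65 with maresin 1, a difference of -0.30 ± 0.06 (SE, n = 2; limma, adjusted p = 0.0322). In fold the 3 decreases were 1.35, 1.33 and 1.23, and in each the maresin 1 arrays lay below both vehicle arrays (of all genes tested, 69.6% had no overlap). They were called under all 5 scalings, and lost their call whichever array was left out (limma, adjusted p = 0.0643 to 0.153).

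Gusb, β-glucuronidase, differed by -0.22 ± 0.05 (SE, n = 2) and missed the threshold (limma, adjusted p = 0.0541), although it was called lower under 3 of the other scalings. Gaa, acid α-glucosidase, differed by -0.15, Glb1, β-galactosidase, by -0.12, and Smpd1, acid sphingomyelinase, by -0.11. The groups did not overlap for these genes, nor for Neu1, a sialidase, at 0.07, and Psap, the precursor of the saposins that present sphingolipids to the hydrolases, at 0.05. Asah1, acid ceramidase, differed by -0.04 with overlap. The count called lower was 3 with the main scaling and with normexp and the 75th percentile, 5 in the authors' value table and after quantile normalization, and 6 with normexp and quantile normalization, with 0 higher in each.

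Among 34 other hydrolases and cofactors tested, 3 were called higher, 5 lower and 26 were not, with a median difference of -0.04. The share called was 23.5%, against 24.0% of all genes tested. The lower calls included Ppt1 and Ppt2, both named as palmitoyl-protein thioesterases. Ppt2 read 2.71 and 2.62 with vehicle and 1.54 and 1.31 with maresin 1, a difference of -1.23 ± 0.10 (SE, n = 2; limma, adjusted p = 0.00563), or 2.35-fold, and -1.25 at its second probe. Ppt1 fell by 0.51 on the log2 scale (limma, adjusted p = 0.0148), and its 2 other probes were also called, at -0.63 and -0.62. Arsg, a lysosomal sulfatase, went from -1.59 and -1.57 to -2.55 and -2.39, by -0.89 ± 0.08 (SE, n = 2; limma, adjusted p = 0.00618), with -0.89 at its second probe. Hgsnat, an acetyltransferase of heparan sulfate breakdown, rose by 0.54 (limma, adjusted p = 0.00817) and by 0.40 at its second probe. The calls of Ppt2 and Arsg held whichever array was left out (limma, adjusted p = 0.0241 to 0.0436), and those of Ppt1 and Hgsnat did not (limma, adjusted p = 0.0475 to 0.0833). Acp5, the tartrate-resistant phosphatase of osteoclasts and macrophages, Grn, the progranulin precursor, and Npc2, a cholesterol carrier, differed by 0.02, -0.06 and 0.03 and were not called.

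Of the 4 membrane proteins 1 was called (25%, against 24.0% of all genes tested). Lamp2, a main glycoprotein of the lysosomal membrane that serves in fusion with autophagosomes, rose from 4.94 and 5.01 to 5.31 and 5.42. The difference was 0.39 ± 0.07 (SE, n = 2; limma, adjusted p = 0.0280), or 1.31-fold, with 0.24 at a probe for another transcript, which was not called (limma, adjusted p = 0.0790). It was called under 2 of the 5 scalings, with 0.25 after quantile normalization (limma, adjusted p = 0.0806), and lost its call whichever array was left out (limma, adjusted p = 0.0668 to 0.131). Lamp1, its relative, differed by -0.06, Mcoln1, a channel that releases calcium from the lysosome, by 0.16, and Gpnmb, a glycoprotein of phagocytes loaded with lipid or debris, by -0.03. The arrays of the groups overlapped for Gpnmb.

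Among 24 other genes of the lysosomal membrane and of sorting to it, 5 were called higher, 6 lower and 13 were not. The share called was 45.8%, against 24.0% of all genes tested. Tpcn2, a cation channel, rose by 0.43 (limma, adjusted p = 0.0147), Slc38a9, an amino acid transporter that reports arginine to mTORC1, by 0.49 (limma, adjusted p = 0.0125), and Laptm4a, a membrane protein, by 0.39 (limma, adjusted p = 0.0169). A second probe of Tpcn2 differed by 0.05 and was not called (limma, adjusted p = 0.872). Each of the 3 genes lost its call whichever array was left out (limma, adjusted p = 0.0562 to 0.0932). Slc17a5, the sialic acid exporter, differed by -0.72 (limma, adjusted p = 0.0112) but by 0.25 at its second probe, so its direction is not settled. Its call was also lost without either vehicle array and without maresin 1 replicate 2 (limma, adjusted p = 0.0517 to 0.0624). Cd63, a tetraspanin of late endosomes, differed by 0.11 and was not called.

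Of the 10 autophagy genes, 1 was called higher, 2 lower and 7 were not, with a median difference of 0.01. The share called was 30%, against 24.0% of all genes tested. Map1lc3b, which encodes the LC3B protein that is joined to lipid on the autophagosome, read 5.11 and 5.08 with vehicle and 5.33 and 5.35 with maresin 1, a difference of 0.24 ± 0.06 (SE, n = 2; limma, adjusted p = 0.0445), and 0.24 at its second probe (limma, adjusted p = 0.0491). Under quantile normalization it was 0.10 and not called (limma, adjusted p = 0.246). Atg7, the enzyme that activates LC3 for its joining to lipid, read 2.34 and 2.39 with vehicle and 2.11 and 2.07 with maresin 1, a difference of -0.27 ± 0.06 (SE, n = 2; limma, adjusted p = 0.0387), with -0.19 at a second probe, which was not called. Atg5, part of the complex that completes that step, read 2.96 and 2.92 with vehicle and 2.70 on both maresin 1 arrays, a difference of -0.24 ± 0.06 (SE, n = 2; limma, adjusted p = 0.0453). Atg5 and Atg7 were called lower under all 5 scalings and Map1lc3b higher under 2. In each of the 3 the groups did not overlap, as for 69.6% of all genes tested, and each lost its call whichever array was left out.

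The 7 autophagy genes not called differed by -0.23 to 0.20. Gabarapl1, of the LC3 family, differed by 0.20 ± 0.06 (SE, n = 2; limma, adjusted p = 0.0872), and its second probe was called at 0.37 (limma, adjusted p = 0.0206). Gabarap and Map1lc3a, of the same family, differed by 0.09 and 0.07. Ulk1, the kinase that starts autophagy, and Wipi1, which binds the forming membrane, differed by -0.19 and -0.23 (limma, adjusted p = 0.0999 and 0.0637). Becn1, a subunit of the lipid kinase complex, differed by 0.15, and Sqstm1, which encodes the cargo receptor p62, by -0.04. Map1lc3a was the gene of these 7 whose groups overlapped.

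In 41 other autophagy genes 1 call was higher, 4 were lower and 36 genes were not called, which is 12.2% called against the 24.0% over all genes tested. Bnip3, a receptor for the removal of mitochondria that is known to respond to low oxygen, read 3.15 and 3.15 with vehicle and 3.74 and 3.76 with maresin 1, a difference of 0.60 ± 0.05 (SE, n = 2; limma, adjusted p = 0.00669). Atg9a, which brings lipid to the forming membrane, fell by 0.58 on the log2 scale (limma, adjusted p = 0.0110), Atg4c, a protease that processes the LC3 family, by 0.37 (limma, adjusted p = 0.0190), and Ulk2, a relative of Ulk1, by 0.33 (limma, adjusted p = 0.0426). Bnip3 lost its call in 1 of the 4 cases with an array left out, Atg9a in 3, and Atg4c and Ulk2 in all 4.

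Lysosomes also carry the machinery by which mTORC1 senses nutrients. Of 22 such genes tested, 0 were called higher, 4 lower and 18 were not. The share called was 18.2%, against 24.0% of all genes tested. Lamtor4, a subunit of the Ragulator scaffold on the lysosome, differed by -0.60 (limma, adjusted p = 0.00936). The other 3 were the 3 sestrins, stress-responsive inhibitors of mTORC1. Sesn1 fell by 0.57 on the log2 scale, Sesn2 by 0.37 and Sesn3 by 0.28 (limma, adjusted p = 0.00961, 0.0317 and 0.0424). With each array left out in turn, Lamtor4 and Sesn1 lost their call in 3 of the 4 cases, and Sesn2 and Sesn3 in all 4. Lamtor4, Sesn1 and Sesn2 were called under all 5 scalings.

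**Figure D4:**
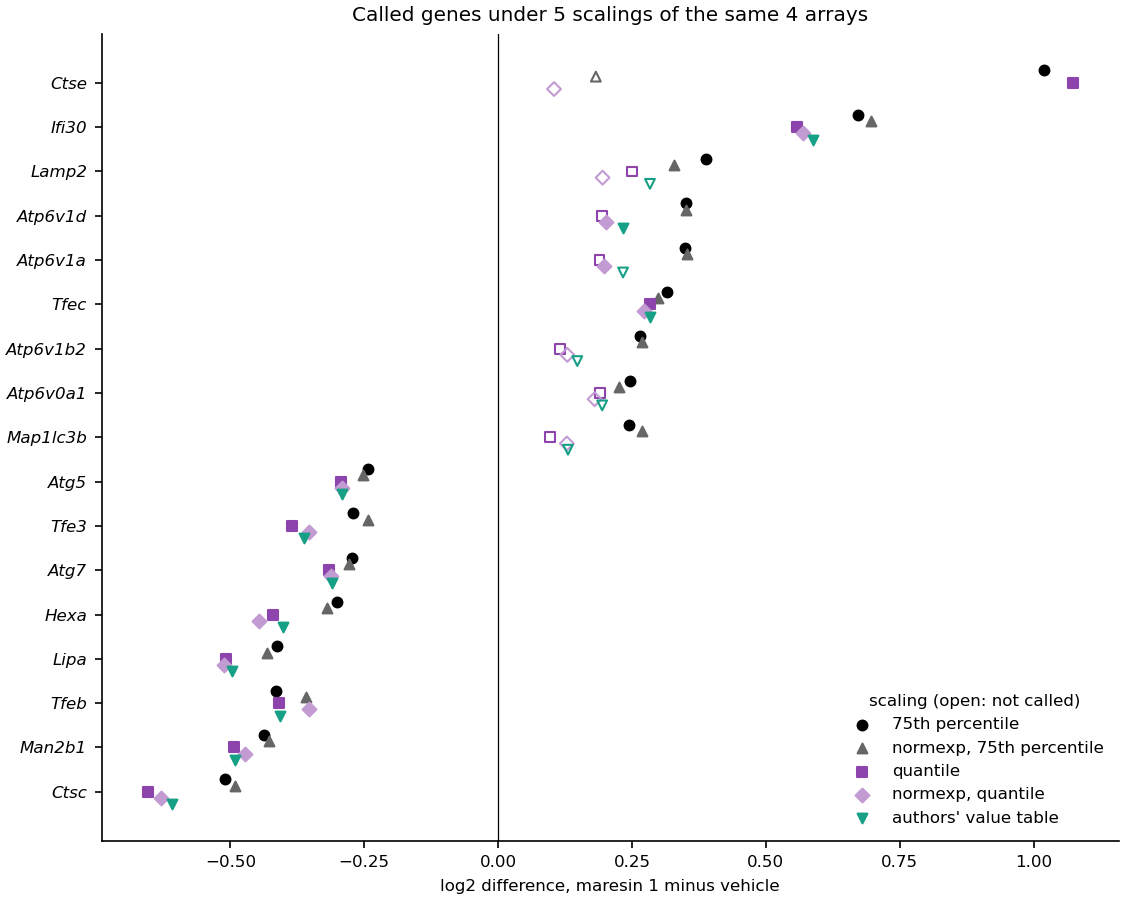
Difference of the 17 called genes under 5 scalings of the same 4 arrays (x axis, log2 difference; filled, called at an adjusted p under 0.05 in limma; open, not called). The 8 genes called lower are filled throughout, and Ifi30 and Tfec are the 2 called higher that are filled throughout.

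Probes other than the one used gave a check that does not draw on the same spot, though it draws on the same 4 arrays. It therefore says nothing about the spread between arrays or cultures. Of the 49 genes 20 had 24 other probes above background, and 20 of the 24 differed in the same direction as the probe used. Of these 24, 7 were called in limma over all probes, each in the same direction, 3 of them for genes not called at the probe used, Atp6v1h, Ctsh and Gabarapl1. The genes called had 9 other probes, of which 4 were called, for Atp6v1b2, Map1lc3b and Tfeb. For scale, 24.0% of all genes tested were called at the probe used.

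Across all 156 other listed genes of these systems, 147 were tested and 39 (26.5%) were called, 18 higher and 21 lower, against 24.0% of all genes tested. The calls that held whichever array was left out were 6, Cst7, Ctsk and Atp6v0d2 higher and Ppt2, Arsg and Stfa3 lower.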

How the data were processed

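The authors obtained the spot intensity values, per the file headers, with Agilent Feature Extraction 11.0.1.1 (version from the submitters' processing notes), which corrects the background within each array. The deposited scanner output carries no normalization between arrays. The deposited value table holds log2 values, whose columns look quantile-normalized (sorted columns differed by at most 0.00217), with scale and filter not given in the sources used here, and was an alternative only.

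From log2 of each processed signal, the 75th percentile of the 59305 spots that are not controls on that array was subtracted. Probes with an outlier mark on any array were left out, and probes had to be well above background on each array of 1 group or both. Probes were named by RefSeq accession through the RefSeq genes of GRCm38.p6 (names only, 32994 of 56605 probes, 58.3%), and others kept their identifier. The brightest kept probe stood for a gene. limma 3.58.1 (R 4.3.3, lmFit and eBayes, two-sided) gave 2.27 prior degrees of freedom, and was tested on simulated data. Files were parsed by data.table (version 1.17.8) and figures drawn in Python 3.11.15 with matplotlib 3.10.9. The headers mark the negative-control signal of vehicle replicate 2 (41.4, against 37.2 to 38.9) for evaluation. No spot was saturated (0 on each array).

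The genes, lists and tests were chosen with earlier results of these data known. Besides the 49 genes, the genes named are up to 4 of each further list with the smallest unadjusted p, and Ctsk, Acp5, Tcirg1, Atp6v0d2, Grn, Npc2, Cst3, Cd63 and cell type markers. Alternatives were the 4 other scalings (normexp with offset 50 used the median spot signal), other filters, other probes, a variance trend, a replicate block and each array left out.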

Additional observations from a re-analysis of the deposited data

How the results depend on the processing

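The main counts, higher and lower, were 9 and 8 for the 49 genes, 18 and 21 for the other listed genes, and 2699 and 3069 for all genes. Counts that moved by over 1.5 times are these. For the 49 genes, 3 were higher in the authors' value table and after quantile normalization, and 4 higher and 16 lower with normexp and quantile normalization. Without the filter on dim probes they were 2 and 2, and with a variance trend 15 were lower. For the other listed genes, 11 were higher after quantile normalization and 42 lower with normexp and quantile normalization. They were 9 and 8 without the filter and 33 and 36 with the trend. For all genes they were 1087 and 972 without the filter, which moved the median difference to -0.14, and 4525 and 4670 with the trend. With 1 array left out, counts were 0 to 1 and 0 to 0 for the 49 genes, 3 to 5 and 3 to 8 for the other listed genes, and 882 to 1207 and 668 to 1163 for all genes; the lone array of a group is then assumed to vary like the other group. The second probe of Slc17a5 gave 0.25, against -0.72. Replicates of the same number did not deviate together (r = -0.03 across genes). With spread that may be technical, this cannot settle whether a number pairs arrays. With the replicate block, counts were 3 and 4 for the 49 genes, 9 and 11 for the other listed genes and 1766 and 1926 for all genes. The cause of these moves was not tested. With 4 arrays the precision is limited by their number.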
